A study of Mus musculus with 6 samples.

Results

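The interleukin 11 receptors, their ligand and the receptors, ligand and transcription factor that share the gp130 chain with them were examined in knee joint cartilage of young mice with and without a conditional deletion of the adult β-globin genes. The members were taken by name: *Il11ra1*, *Il11ra2*, *Il11*, *Il6st*, *Il6ra*, *Lifr*, *Lif*, *Osmr*, *Cntfr* and *Stat3*. Every row of the count table that carries 1 of these 10 names was kept, which gave 12 rows of 55487, because *Il11ra2* has 3 rows, one on chromosome 4 and one on each of 2 unplaced scaffolds. The family was selected on the *Hbb*-cKO against WT differences of these same 6 libraries, in which *Il11ra2* stood out, so the differences of its members between the groups are given as a description; the calls of the fit across all genes are counted once for them, and nothing is read from that count.

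Cytokines of the interleukin 6 family bind a receptor chain of their own and then recruit gp130, the product of *Il6st*, which carries the signal to Janus kinases and to the transcription factor STAT3. Interleukin 11 binds the chain encoded by *Il11ra1*, whose loss in people is known for early closure of the skull sutures, while oncostatin M and leukaemia inhibitory factor act on bone and cartilage through OSMR and LIFR paired with gp130. Mice carry an *Il11ra1* duplicate named *Il11ra2*, and its near identity to *Il11ra1* bears on how short reads can be assigned to either gene.

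Cartilaginous tissue of the knee was taken at postnatal day 6 from mice in which *Hbb* was conditionally knocked out in chondrocytes (*Hbb*-cKO, 3 libraries) and from wild-type mice (WT, 3 libraries), and polyadenylated RNA was sequenced. In the study, the floxed allele spans *Hbb-bs* and *Hbb-bt* on a C57BL/6J background and was crossed to *Prx1-Cre*, active in limb mesenchyme and its descendants, or to the tamoxifen-induced *Col2a1-Cre*ERT2, active in chondrocytes. The study uses the name *Hbb*-cKO for the second cross, while the labels of the sequenced samples name no Cre line. The tamoxifen schedule of the sequenced mice, whether the WT mice carried Cre or received tamoxifen, and how many mice entered a library were not found in the sources used here. The p-values below therefore measure the spread between these libraries.

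The coding sequence of *Il11ra2* is shown beside those it shares runs with, because a read from such a run fits more than one gene. Among all reference transcripts, the genes with a 50-base run in common with *Il11ra2* were *Il11ra1* and the predicted gene *Gm13305*, which makes a set of 3 on chromosome 4. The reference transcript *Il11ra2-201* has 1299 bases, all coding, and differed from *Il11ra1-203* at 13 of them (99.0% identical) and from *Gm13305-201* at 0. The stretch of 150 coding bases below holds 5 of the 13 differences, which are in capitals; every other letter is the same in the 3 transcripts. On GRCm38 with the GENCODE M21 annotation it spans exons 10 to 12 of 14 in *Il11ra1-203* (chr4:41767596-41768186, plus strand), exons 8 to 10 of 12 in *Il11ra2-201* (chr4:42657297-42657888, minus strand) and exons 10 to 12 of 14 in *Gm13305-201* (chr4:42160138-42160729, minus strand), the introns between them left out.
Il11ra1: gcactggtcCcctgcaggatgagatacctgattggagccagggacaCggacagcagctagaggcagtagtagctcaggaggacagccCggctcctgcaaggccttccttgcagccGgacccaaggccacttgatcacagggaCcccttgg
Il11ra2: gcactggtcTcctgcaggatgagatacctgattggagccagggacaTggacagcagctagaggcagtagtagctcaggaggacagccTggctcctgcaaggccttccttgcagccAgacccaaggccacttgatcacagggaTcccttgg
Gm13305: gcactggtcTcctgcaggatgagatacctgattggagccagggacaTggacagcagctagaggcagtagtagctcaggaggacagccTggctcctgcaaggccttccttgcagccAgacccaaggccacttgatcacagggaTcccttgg

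Of the 1250 windows of 50 bases in *Il11ra2-201*, 59.3% occurred unchanged in *Il11ra1-203* and all 1250 in *Gm13305-201*. Of its windows of 100 and 150 bases, 41.8% and 30.8% occurred in *Il11ra1-203*, and all of both lengths in *Gm13305-201*. A read that falls in such a window cannot be placed by its sequence alone, whereas a read over a capital letter separates *Il11ra1* from the other two. Transcripts of the scaffold rows were not analysed here, so their identity to the chromosome 4 row was not measured.

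The sequence upstream of *Il11ra2* is shown because *Il11ra2* and *Gm13305* had the same one: the 299 bases of their RefSeq promoter windows that could be compared matched at all 299. The 250 bases before the *Il11ra2* start are given from RefSeq on GRCm38.p6, at chr4:42665764-42666013 on the minus strand, with no part in capitals.
Il11ra2 upstream: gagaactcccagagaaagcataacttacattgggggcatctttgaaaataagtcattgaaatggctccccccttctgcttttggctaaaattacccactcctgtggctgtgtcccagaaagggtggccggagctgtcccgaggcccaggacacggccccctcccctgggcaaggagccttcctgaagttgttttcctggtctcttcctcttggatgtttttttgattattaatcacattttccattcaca

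STAT proteins bind palindromes of the form TTCNNNGAA, and this motif, read on both strands, lay in 0 of the 18 RefSeq promoter windows of the 10 members, against 8.30% of all 32851 windows of the same 300 bases. That match is to letters in these windows only.

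Library totals ranged from 16544800 to 20969914 counts, and 17175 genes passed the filter on low counts. Levels are given as CPM, a count scaled to the size of its library and by TMM factors, and errors on means are SEM over 3 libraries. The deleted genes were lower in every *Hbb*-cKO library, at 1606 to 2257 CPM against 2848 to 6394 CPM in WT for *Hbb-bs* and at 2589 to 3187 CPM against 4064 to 10417 CPM for *Hbb-bt*, with adjusted p = 0.22 and 0.24 by edgeR's quasi-likelihood test and 0.0017 and 0.0024 by DESeq2. Of the marker lists of other cells, edgeR called 0 genes. Besides *Hbb-bs*, DESeq2 called *Alas2* and *Hba-a1*, lower in *Hbb*-cKO (adjusted p = 9.5e-05 and 0.013). It also called *Ngp*, *Ltf* and *Dpt*, higher in *Hbb*-cKO (adjusted p = 0.0026, 0.0098 and 0.021). DESeq2 called 1.16% of all genes it tested. The 4 erythroid markers summed to 5673 to 7803 CPM in *Hbb*-cKO and 8606 to 23800.5 CPM in WT, and the 3 endothelial markers to 433 to 489 CPM and 330 to 403 CPM. The 8 neutrophil markers, all with a log2 fold change above 0 (median 1.79, 7 with an unadjusted p under 0.05), summed to 26.5 to 123 CPM in *Hbb*-cKO and 17.2 to 37.4 CPM in WT. The 6 skeletal muscle markers summed to 20858 to 28593 CPM and 25838 to 42041 CPM (median log2 fold change -0.39, 3 with an unadjusted p under 0.05). The 8 chondrocyte markers, *Col2a1* and *Acan* among them, summed to 31087 to 38868 CPM in WT and to 15618, 52723 and 38012 CPM in *Hbb*-cKO replicates 1, 2 and 3. Counts of Y-linked genes were 0 in WT replicates 1 and 2 and between 1010 and 2907 in the other 4 libraries, so the groups also differed in the sex of their mice. WT replicate 3 and *Hbb*-cKO replicates 1 and 3 held 2725, 5052 and 8079 counts of *Xist*, the RNA of the inactive X chromosome, beside their Y-linked counts, which *Hbb*-cKO replicate 2 did not, with 6.

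Levels were first ordered in WT cartilage, as CPM per kb of exon, the scale on which genes of unequal length can be compared. *Il11ra1* was the most abundant member, at 32.7 ± 2.50 CPM per kb (n = 3), and its 3 WT libraries lay above those of every other member. *Stat3* followed at 13.6 ± 1.11, the chromosome 4 row of *Il11ra2* at 11.8 ± 0.657 and *Il6st* at 11.6 ± 1.88 CPM per kb. Per kb of exon the libraries of these 3 overlapped, so that their order did not exceed the spread. By the length of the longest transcript *Stat3*, at 18.2 to 24.2 CPM per kb, lay above the chromosome 4 row of *Il11ra2* at 10.9 to 13.1. On that scale *Il6st*, at 10.6 to 19.0, overlapped both.

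*Cntfr* at 5.40 ± 0.371, the *Il11ra2* row of scaffold JH584293.1 at 5.27 ± 0.341 and *Lifr* at 4.93 ± 0.637 CPM per kb of exon formed a next group that overlapped within itself. By the length of the longest transcript *Cntfr*, at 6.80 to 8.53 CPM per kb, lay above the JH584293.1 row at 4.59 to 5.64. *Lifr*, at 4.57 to 6.90, then overlapped both. Per kb of exon *Osmr* at 2.01 ± 0.460 and *Il6ra* at 1.58 ± 0.325 CPM overlapped each other and lay below this group. By the length of the longest transcript *Osmr* was at 4.44 ± 1.02 CPM per kb, where its libraries overlapped those of *Lifr* and not those of *Il6ra*. The ligands were lowest, with *Il11* at 0.667 ± 0.0634 and *Lif* at 0.655 ± 0.0411 CPM per kb, again overlapping. Only the *Il11ra2* row of scaffold JH584294.1 was below them, at 0.0156 CPM per kb. The chromosome 4 row of *Il11ra2* runs from 42656001 to 42665763 in the table and from 42656355 to 42661893 in the reference annotation that gave its length of 1299 exon bases, so its level per kb is uncertain; the positions of the other 11 rows were the same in both.

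**Figure D1:**
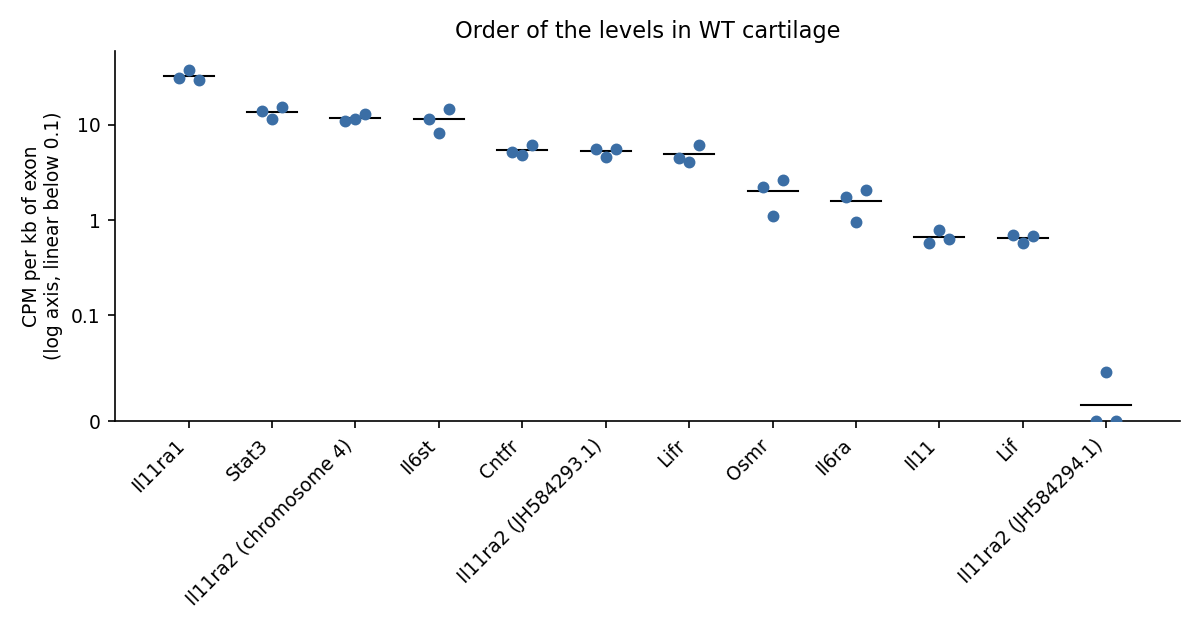
Level of each of the 12 rows in the 3 WT libraries (points) and their mean (line), in CPM per kb of exon on a log axis that turns linear below 0.1. *Il11ra1* stands alone at the top at 32.7 CPM per kb, receptor chains and *Stat3* lie between 1.58 and 13.6, and *Il11* and *Lif* at 0.667 and 0.655 stand above only the *Il11ra2* row of scaffold JH584294.1.

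The ligands came first in the comparison of the genotypes. *Il11* encodes interleukin 11 and lies on chromosome 7 (4772373 to 4782859, minus strand). It was measured at 1.20, 1.64 and 1.33 CPM in WT replicates 1 to 3 and at 1.14, 1.05 and 0.755 CPM in *Hbb*-cKO, from 16 to 27 counts per library. The *Hbb*-cKO libraries all lay below the WT libraries, but the nearest pair, 1.20 and 1.14 CPM, differed by less than the spread within either group. The log2 fold change was -0.50 ± 0.30 (SE of the edgeR fit).

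*Lif* encodes leukaemia inhibitory factor (chromosome 11, 4257557 to 4272514, plus strand) and was measured at 3.05, 2.49 and 3.00 CPM in WT and at 3.41, 3.01 and 3.54 CPM in *Hbb*-cKO. *Hbb*-cKO replicate 2 fell within the WT range and the other 2 lay above it, with a log2 fold change of 0.22 ± 0.21.

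*Il11ra1*, the receptor chain that binds interleukin 11, was level between the groups (chromosome 4, 41699989 to 41769474, plus strand). It reached 138, 168 and 133 CPM in WT and 157, 141 and 152 CPM in *Hbb*-cKO. The 3 *Hbb*-cKO libraries all lay inside the WT range, and the log2 fold change was 0.03 ± 0.13. The table's extent of *Il11ra1* overlaps other genes on both strands, *Galt* on its own strand among them, and the sources used here do not say whether reads were counted by strand.

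The chromosome 4 row of *Il11ra2* moved apart. It was measured at 14.1, 15.02 and 17.0 CPM in WT, from 236 to 295 counts, and at 42.6, 40.5 and 32.3 CPM in *Hbb*-cKO, from 685 to 808 counts. The lowest *Hbb*-cKO library was above the highest WT library by more than the range of either group. The mean rose from 15.4 ± 0.853 to 38.5 ± 3.13 CPM, 2.50 times the WT mean, with a log2 fold change of 1.32 ± 0.15.

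The row of scaffold JH584293.1 (10948 to 16486, plus strand) gave the same order of the groups at a lower level. It was at 7.25, 5.96 and 7.33 CPM in WT and at 16.0, 14.8 and 12.6 CPM in *Hbb*-cKO, 2.12 times the WT mean, with a log2 fold change of 1.08 ± 0.16. The row of scaffold JH584294.1 (4164 to 9702, minus strand) held 0, 1 and 0 counts in WT and 3, 6 and 7 in *Hbb*-cKO and did not pass the filter. Relative to the library totals that was a ratio of 13.98, with a 95% exact binomial interval from 2.17 to 586 that covers counting error only.

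The division of the counts among the rows was also compared. The chromosome 4 row held 66.1, 71.4 and 69.9% of the *Il11ra2* counts in WT and 72.4, 72.8 and 71.4% in *Hbb*-cKO. The row of scaffold JH584293.1 held 28.3 to 33.9% in WT and 26.7 to 27.9% in *Hbb*-cKO, so that both rows were higher in *Hbb*-cKO and the chromosome 4 row by somewhat more. Whether the 3 rows are independent readings of a difference was not tested, and the sources used here do not tell how reads that fit several rows were counted. The erythroid, endothelial, neutrophil and skeletal muscle values given above also shifted between the groups, with overlap for the last 2 lists, and their part in the *Il11ra2* difference was not tested. Fewer cells of a type and less RNA per cell cannot be told apart in bulk tissue.

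**Figure D2:**
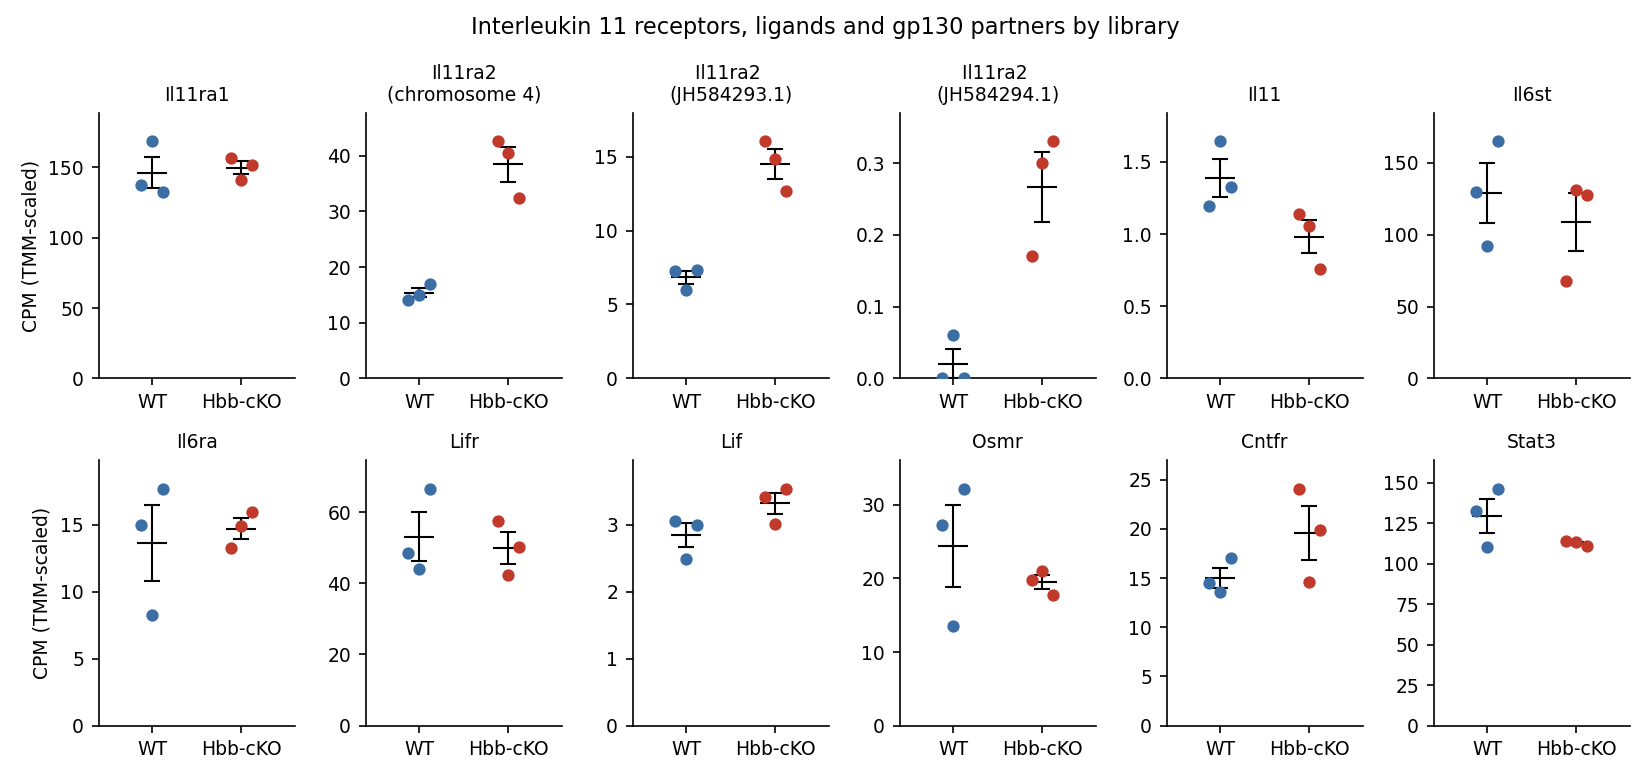
CPM of the 12 rows in each library, with WT in blue and *Hbb*-cKO in red; the horizontal line is the mean and the bar the SEM of 3 libraries, and each panel has its own axis from 0. The 3 *Il11ra2* rows are higher in every *Hbb*-cKO library, *Il11* is lower by a small gap, and the other 8 rows overlap.

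The copies were then put on a common scale, as the share of *Il11ra2* in the counts of *Il11ra1* and all *Il11ra2* rows. In WT this share was 13.4% (95% Wilson interval 12.2 to 14.8), 11.1% (10.05 to 12.3) and 15.5% (14.2 to 16.9) in replicates 1 to 3, of 2656 to 3117 counts. In *Hbb*-cKO it was 27.2% (25.8 to 28.7), 28.3% (26.9 to 29.7) and 23.0% (21.7 to 24.3), of 3796 to 4174 counts. The mean went from 13.3 ± 1.27% to 26.2 ± 1.62%. The intervals cover counting error within a library only and say nothing of the spread between libraries.

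Summed over *Il11ra1* and the *Il11ra2* rows, the level was 168.6 ± 10.5 CPM in WT and 203 ± 6.31 CPM in *Hbb*-cKO, with every *Hbb*-cKO library above every WT library and a log2 fold change of 0.27 ± 0.12. Summed over the *Il11ra2* rows alone it was 22.3 ± 1.05 and 53.2 ± 4.07 CPM, with a log2 fold change of 1.26 ± 0.14. In CPM the sum over both genes was 34.5 higher in *Hbb*-cKO and the sum of the *Il11ra2* rows 31.0 higher.

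**Figure D3:**
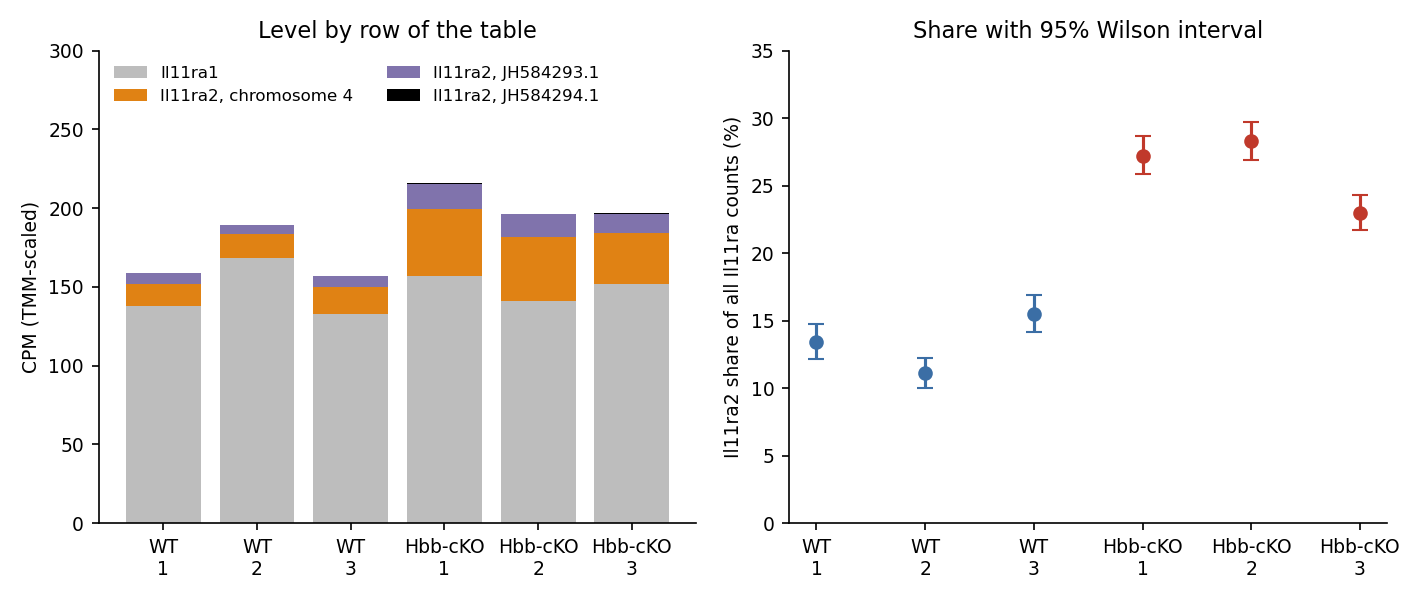
Left, TMM-scaled CPM of *Il11ra1* (grey) and of the 3 *Il11ra2* rows (orange, purple and black) stacked for each library; right, the *Il11ra2* share of these counts in percent with its 95% Wilson interval, WT in blue and *Hbb*-cKO in red. The grey part stays between 133 and 168 CPM in all 6 libraries, while the share lies between 11.1 and 15.5% in WT and between 23.0 and 28.3% in *Hbb*-cKO.

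The receptor chains for other ligands followed, none of which separated the groups. *Cntfr*, which binds ciliary neurotrophic factor, ends 2.90 kb before *Il11ra1* on chromosome 4 (41657498 to 41697089, minus strand). It was at 14.5, 13.6 and 17.0 CPM in WT and 24.1, 14.6 and 19.9 CPM in *Hbb*-cKO. Replicates 1 and 3 of *Hbb*-cKO lay above the WT range and replicate 2 inside it, and the log2 fold change was 0.38 ± 0.20.

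*Il6ra*, the chain that binds interleukin 6 (chromosome 3, 89864059 to 89913196, minus strand), was at 14.97, 8.27 and 17.7 CPM in WT and 13.2, 14.9 and 15.9 CPM in *Hbb*-cKO. WT replicate 2 was the low one, and the log2 fold change of 0.11 ± 0.26 became -0.14 without it and 0.34 without WT replicate 3.

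*Lifr* and *Osmr*, which pair with gp130 for leukaemia inhibitory factor and oncostatin M, lie 216 kb apart on chromosome 15. *Lifr* (7090614 to 7197489, plus strand) was at 48.6, 44.1 and 66.6 CPM in WT and 57.5, 42.2 and 50.1 CPM in *Hbb*-cKO, with a log2 fold change of -0.09 ± 0.18. *Osmr* (6813577 to 6874969, minus strand) was at 27.3, 13.6 and 32.2 CPM in WT and 19.8, 20.999 and 17.8 CPM in *Hbb*-cKO. Here again WT replicate 2 was the lowest library of all 6, and the log2 fold change of -0.32 ± 0.29 became -0.59 without it and -0.06 without WT replicate 3.

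*Il6st*, the shared gp130 chain (chromosome 13, 112464070 to 112510086, plus strand), varied more within the groups than between them. It was at 129, 92.4 and 165 CPM in WT and at 68.1, 131 and 128 CPM in *Hbb*-cKO. The low *Hbb*-cKO library was replicate 1, which was also lowest in the summed chondrocyte markers, and without it the log2 fold change of -0.24 ± 0.30 became 0.01.

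*Stat3*, the transcription factor downstream of gp130 (chromosome 11, 100885098 to 100939540, minus strand), was at 133, 110.2 and 146 CPM in WT and at 114, 114 and 111 CPM in *Hbb*-cKO. The *Hbb*-cKO libraries were close together inside the lower end of the WT range, with a log2 fold change of -0.20 ± 0.13. Its 3′ end overlaps that of *Stat5a* on the other strand.

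Of the 12 rows, 11 passed the filter on low counts. edgeR called 1 of them at an adjusted p under 0.05, the chromosome 4 row of *Il11ra2*, in a comparison that called 0.105% of the 17175 genes tested (6 higher in *Hbb*-cKO, or 0.0349%, and 12 lower, or 0.0699%). Among all genes tested, 8.7% had every *Hbb*-cKO library above every WT library and 8.96% had every one below, against 2 (both *Il11ra2*) and 1 (*Il11*) of the 11 rows. The call of the *Il11ra2* row was lost when any 1 library other than WT replicate 3 was left out. Since the contrast entered the choice of the members, nothing is read from these counts. The median log2 fold change was 0.03 over the 11 rows and -0.01 over all genes tested.

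The rest of the pathway was followed in a list of 37 further genes, of which 33 passed the filter. By edgeR's quasi-likelihood test adjusted over all genes, 0 rose and 0 fell; the unadjusted p was under 0.05 for 3 of them (9.09%), beside 10.1% of all genes tested. DESeq2 called 0, against 1.16% of the genes it tested. The median log2 fold change was -0.10, with 10 of 33 above 0 (30.3%), beside 47.5% of all genes tested. The interval of a single gene here, with SEs of 0.11 to 0.80, leaves room for changes that 3 libraries a group cannot show.

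Among the ligands outside the family, *Il6* (interleukin 6) had 8, 1 and 3 counts in WT and 0, 15 and 8 in *Hbb*-cKO, and *Osm* (oncostatin M) had 4, 7 and 3 counts in WT and 13, 11 and 18 in *Hbb*-cKO. Both were below the filter. The *Osm* groups did not overlap, at no more than 18 counts per library. *Il27ra*, the interleukin 27 receptor chain, was at 1.92, 1.34 and 0.981 CPM in WT and 2.22, 2.16 and 2.03 CPM in *Hbb*-cKO, with a log2 fold change of 0.59 ± 0.30 (edgeR adjusted p = 0.56).

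The kinases that sit on gp130 come next. *Jak1* was at 117 to 140 CPM in WT and 129 to 134 CPM in *Hbb*-cKO, with a log2 fold change of 0.01 ± 0.11, and *Jak2* was at 41.4 to 51.1 and 41.4 to 50.9 CPM, with -0.01 ± 0.13. *Socs3*, the feedback inhibitor induced by STAT3 that binds gp130, was at 44.8, 57.8 and 46.6 CPM in WT and 49.6, 43.7 and 46.3 CPM in *Hbb*-cKO, with -0.10 ± 0.13. *Cish*, another feedback inhibitor of cytokine signals, chosen after its values were seen, was at 23.5, 21.04 and 20.1 CPM in WT and 4.09, 13.9 and 16.5 CPM in *Hbb*-cKO, with -0.90 ± 0.45 (edgeR adjusted p = 0.56). Its *Hbb*-cKO libraries all lay below WT, and replicate 1 was the lowest.

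Of the 11 listed STAT3 targets, 8 had a log2 fold change below 0, beside 52.5% of all genes tested. An unadjusted p under 0.05 by edgeR was found for 3 of the 11 (27.3%), beside 10.1% of all genes tested. These 3 were *Cebpb*, *Cebpd* and *Junb*. *Cebpb*, a bZIP transcription factor of acute-phase and differentiation genes, was at 46.4, 42.8 and 52.5 CPM in WT and 40.4, 27.8 and 31.7 CPM in *Hbb*-cKO, with -0.51 ± 0.16 (edgeR adjusted p = 0.33). *Cebpd*, of the same factor family, was at 36.7, 36.1 and 58.8 CPM in WT and 31.0, 30.8 and 28.6 CPM in *Hbb*-cKO, with -0.54 ± 0.20 (adjusted p = 0.40). In both, and in *Mcl1* with -0.12 ± 0.11, every *Hbb*-cKO library lay below every WT library, without passing the test. That is 3 of the 11 targets, beside 8.96% of all genes tested.

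*Junb*, an AP-1 subunit, went the other way, at 36.9, 39.1 and 35.5 CPM in WT and 47.2, 44.3 and 41.2 CPM in *Hbb*-cKO, with a log2 fold change of 0.25 ± 0.11 (edgeR adjusted p = 0.49). The protease *Adam10*, which sheds receptor ectodomains, was at 10.5 CPM in WT replicate 2 and at 58.7 to 75.8 CPM in the other 5 libraries; it was chosen after its values were seen, because *Il6ra* and *Osmr* were also lowest in that library.

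**Figure D4:**
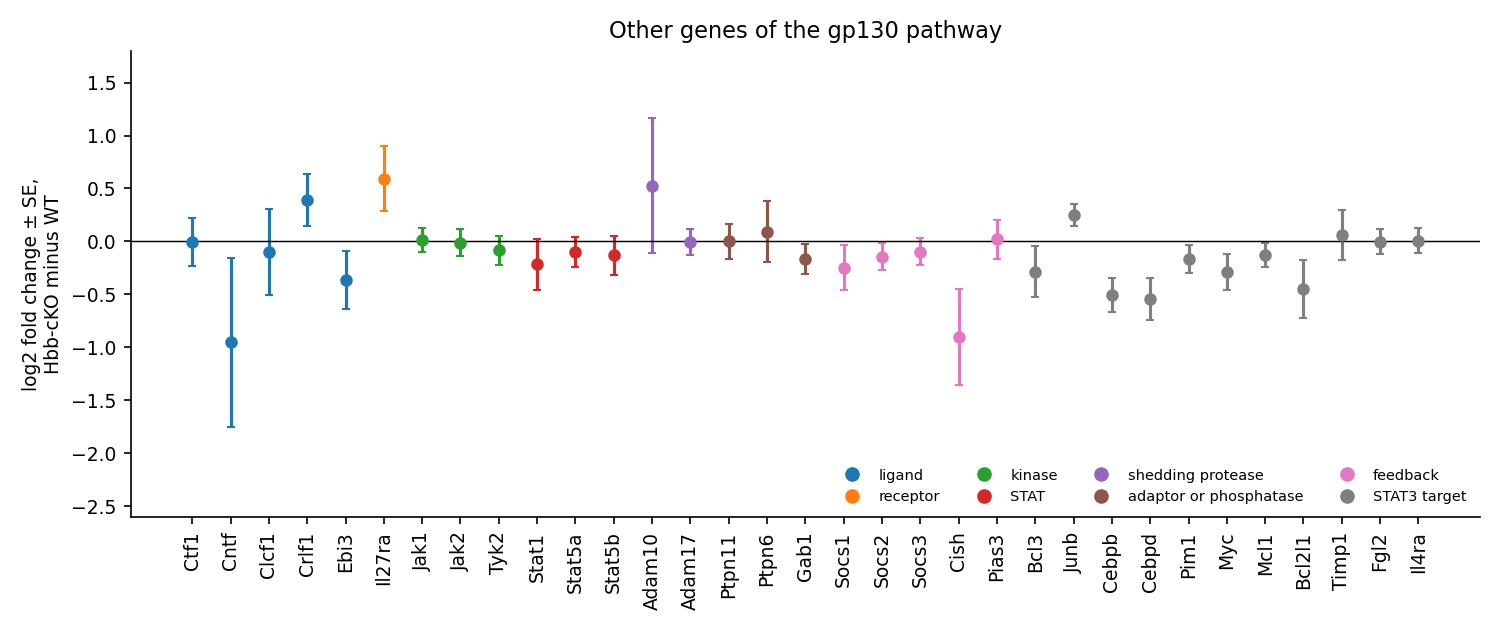
Log2 fold change of *Hbb*-cKO over WT with its SE for the 33 tested genes of the pathway list, coloured by role. The kinases lie between -0.08 and 0.01, *Cebpb* and *Cebpd* lie at -0.51 and -0.54, and none of the 33 passed the test over all genes.

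The last comparison asked whether genes near the receptors differed with *Il11ra2*, since *Il11ra1* and *Il11ra2* lie 887 kb apart on chromosome 4. Besides the receptor rows, 72 genes within 1 Mb of either, or on the 2 scaffolds, were tested. edgeR called 0 of them at an adjusted p under 0.05, while 18 of the 72 (25.0%) had an unadjusted p under 0.05, beside 10.1% of all genes tested. DESeq2 called 5 (6.94%), beside 1.16% of the genes it tested.

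By position, the 10 tested genes between *Il11ra1* and *Il11ra2* had a median log2 fold change of 0.59, from -0.56 to 4.29. The 27 before or within *Il11ra1* had a median of -0.03 and the 32 after *Il11ra2* a median of -0.04. An unadjusted p under 0.05 was found for 2 (7.41%) and 8 (25.0%) of these. On the scaffolds, the 3 tested genes besides the receptor row had a median of 1.89, from 0.25 to 2.55. Of these 3, 2 had an unadjusted p under 0.05 by edgeR and every *Hbb*-cKO library above every WT library. DESeq2 called 0 of the 3. Of the 10 between the receptors, 9 shared 50-base windows with another gene of the region and 1 had no reference transcript, against 2 of the 27 and 3 of the 32 that shared such windows. The part of repeated reads in the counts of this block was not tested. Of the 9 between the receptors, *Gm10591*, *Gm21953* and *Ccl27a* had log2 fold changes of -0.03, -0.22 and -0.56. Those of *Gm21093*, *Fam205a3*, *Fam205a2*, *Gm10593* and *Ccl27b* were 0.32, 0.48, 0.69, 1.47 and 1.77. *Gm13305*, at 4.29, and the gene without a reference transcript, *Gm50470*, at 3.58, are described next.

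*Gm13305*, identical to *Il11ra2-201* over its coding bases, held 0, 1 and 2 counts in WT and 30, 22 and 23 in *Hbb*-cKO (chromosome 4, 42158842 to 42168603). Relative to the library totals the ratio was 21.8, with a 95% exact interval from 7.19 to 108 for counting error only (edgeR adjusted p = 0.073). *Gm50470*, a predicted gene 545.5 kb from the start of *Il11ra1*, held 1, 2 and 1 counts in WT and 22, 15 and 23 in *Hbb*-cKO, a ratio of 13.1 with an interval from 4.86 to 49.7 (adjusted p = 0.072). Both were above WT in 3 of 3 *Hbb*-cKO libraries and at under 2 CPM in all.

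The other 3 of the 5 neighbours with the smallest p share no window with another gene and had lower values in *Hbb*-cKO, whereas *Arhgef39* and *Rusc2*, which share none either, stand further down in the order of p and were chosen after their values were seen, had higher ones, with log2 fold changes of 0.66 ± 0.18 and 0.40 ± 0.13 (edgeR adjusted p = 0.28 and 0.34). *Vcp*, an AAA ATPase of protein quality control 1280.0 kb from the start of *Il11ra1*, was at 279, 307 and 299.9 CPM in WT and 139, 141 and 189 CPM in *Hbb*-cKO, with a log2 fold change of -0.91 ± 0.15 (edgeR adjusted p = 0.10). *1700022I11Rik*, whose extent overlaps that of *Vcp*, was at 9.28, 4.86 and 8.9997 CPM in WT and 2.73, 3.21 and 3.96 CPM in *Hbb*-cKO, with -1.22 ± 0.29 (adjusted p = 0.23). *Galt*, the galactose-1-phosphate uridylyltransferase gene inside the table's extent of *Il11ra1*, was at 28.5, 38.3 and 33.7 CPM in WT and 22.2, 20.999 and 20.6 CPM in *Hbb*-cKO, with -0.66 ± 0.14 (adjusted p = 0.18). All 3 were among the 5 genes that DESeq2 called, beside *Gm13305* and *Gm50470*.

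**Figure D5:**
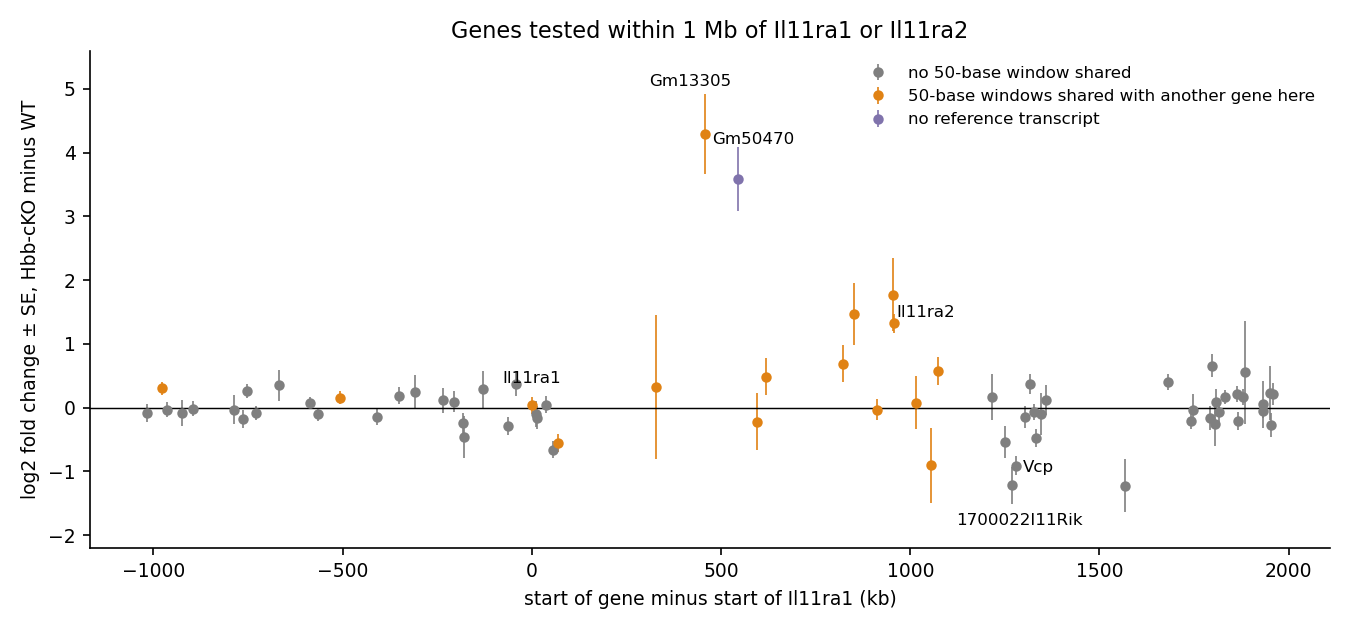
Log2 fold change of *Hbb*-cKO over WT with its SE against the distance from the start of *Il11ra1* in kb, for the tested genes of chromosome 4 within 1 Mb of either receptor. Genes that share 50-base windows with another gene here are orange and those that share none are grey; *Gm13305* and *Gm50470* stand at 4.29 and 3.58 between the receptors, and *Vcp* and *1700022I11Rik* at -0.91 and -1.22 after *Il11ra2*.

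The genes whose log2 CPM followed the chromosome 4 row of *Il11ra2* most closely over the 6 libraries were *Fem1b* (Pearson's r = 0.994), *Tcaf2* (0.990), *Fam78a* (0.986), *Vstm4* (0.986) and *Rbm28* (0.984), among 14411 genes whose mean log2 CPM was 1 or more. The 6 points are 2 groups that do not overlap in any of these genes, so that r mostly restates the genotype and no test of these genes is given. The size of the difference was unlike: *Fam78a* went from 10.2 ± 0.524 to 22.5 ± 0.911 CPM, 2.20 times the WT mean, while *Fem1b* went from 31.6 ± 0.513 to 38.8 ± 0.857 CPM, 1.23 times.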

How the data were processed

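Knee joint cartilage of mice at postnatal day 6 was profiled by RNA-seq in 3 WT and 3 *Hbb*-cKO libraries, grouped by the genotype label. The authors deposited raw counts per gene, whole numbers without normalization. Tools named in the submitters' notes are HISAT2 2.1.0, StringTie, fastp 0.19.5, CASAVA 1.8 and edgeR. For the counter, its strand setting and the genome build nothing is stated in the sources used here. Of 55227 identifiers found in GENCODE M21 (GRCm38), 54907 had the same position.

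All genes were fitted together in edgeR 4.0.16 (R 4.3.3): filterByExpr (minimum count 10, minimum total 15), TMM factors, a robust quasi-likelihood test, Benjamini-Hochberg adjustment and calls at an adjusted p under 0.05. A prior count of 2 entered log2 CPM. Counts of all 15 pairs of libraries differed beyond sampling noise. The fit was checked on simulated data. Levels per kb used the union of exons. Alternatives were DESeq2 1.42.0, RLE factors, other filters, a replicate block, a Y-linked covariate, sums of copies, other lengths and windows, and leaving out each library.

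The members and lists were chosen with earlier results of these data known. Named were all member rows, the 4 pathway genes with the smallest p, and *Il6*, *Osm*, *Jak1*, *Jak2* and *Socs3*. Also named were 5 neighbouring genes with the smallest p, the tested genes between the receptors, and the 5 genes most correlated with *Il11ra2*.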

Additional observations from a re-analysis of the deposited data

How the results depend on the processing

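The number of genes called over the whole table was 18. It was 236 by DESeq2, 60 without a filter on low counts, 4 with the replicate block and 48 with a Y-linked covariate, and 1 to 39 when 1 library was left out (1 without WT replicate 1, 2 and 6 without *Hbb*-cKO replicates 3 and 2, 39 without WT replicate 3). The 1 member row called was the chromosome 4 row of *Il11ra2*. DESeq2 and the fit without a filter called 2, adding the row of scaffold JH584293.1, and 0 were called with the replicate block, with the Y-linked covariate or when *Il11ra1* and *Il11ra2* were summed. With 1 library left out the count was 0 to 1, and only leaving out WT replicate 3 kept the call. Its log2 fold change stayed between 1.19 and 1.44 over the 12 alternatives. The cause of these shifts was not tested. *Il11ra1*, *Il6ra* and *Lifr* each had the sign of their small difference in 10 of 12 alternatives and *Il6st* in 11. Of the pathway list, 0 genes were called except under the Y-linked covariate, which called 1, *Cebpd* (log2 fold change -0.89). No pairing by replicate number was seen: same-numbered deviations correlated at -0.03, -0.11 and -0.03, and no library correlated best with its own number. With 3 libraries a group, these values cannot show that same-numbered libraries are unrelated. Counting *Gm13305* with *Il11ra2*, an alternative chosen after seeing the data, gave shares of 13.4% and 26.6%. A version with genes annotated as receptor copies was not run, since the reference table names no other. With the longest transcript as length, 8 of 12 rows kept their rank. At 16 to 27 counts per library, *Il11* is limited by depth.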
